A study of Mus musculus with 6 samples.

Results

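The GIMAP genes (GTPases of immunity-associated proteins) were described in colitogenic CD4 T cells of the mouse colon that did or did not express a reporter of Tcf7, the gene of the transcription factor TCF-1. Members were taken by symbol. The 8 genes Gimap1, Gimap3, Gimap4, Gimap5, Gimap6, Gimap7, Gimap8 and Gimap9 were found, of 55335 gene identifiers in the count table, and all 8 passed the filter on low counts that left 11074 genes for testing. Both groups held CD4 T cells from the lamina propria, the connective tissue layer under the gut epithelium. They descended from naive splenic CD4 T cells of TcfGFP reporter mice that were given to Rag1 KO hosts, which make no T or B cells but keep their innate cells, and the transfer was used to induce colitis. The 3 GFP-positive libraries (TCF7+) are labelled stem-like T cells and the 3 GFP-negative libraries (TCF7-) effector T cells. Age, sex, time after transfer and the number of mice behind a library are not stated in the sources used here. Because separate mice are not documented, the spread behind each p-value is that between these libraries, and it may be technical.

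GIMAP proteins share a guanine nucleotide-binding domain related to those of septins and dynamins, and most of them sit on internal membranes such as those of lysosomes, the endoplasmic reticulum or mitochondria. They are made mainly by lymphocytes and are known for controlling lymphocyte survival. Loss of working Gimap5 depletes T cells in rats and mice, and mice with that defect develop colitis.

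The libraries held 4408385 to 7462076 counts in the GFP-positive group and 4309500 to 5183794 in the GFP-negative group. GFP-positive replicate 3 stood apart. The summed level of 11 myeloid markers was 7533 CPM (counts scaled to the library total) there, against 148 and 155 CPM in the other GFP-positive libraries and 135 to 199 CPM in the GFP-negative libraries. The sum of 7 antigen-presenting cell markers was 7058 CPM in that library, against 189 and 272 CPM in the other GFP-positive libraries and 343 to 444 CPM in the GFP-negative ones. Its epithelial (317 CPM) and stromal (352 CPM) sums also lay above those of the other 5 libraries. So did its sum of 5 natural killer and innate lymphoid markers (812 CPM, against 30.1 and 42.6 CPM in the other GFP-positive libraries and 47.1 to 123 CPM in the GFP-negative ones), which was carried by Tyrobp (487 CPM) and Fcer1g (302 CPM), genes that myeloid cells also express. Ncr1, Klrb1c and Eomes were at 7.60, 8.61 and 7.17 CPM there. Markers of T cells, Cd3e and Cd4 among them, were at 5355 to 7004 CPM summed over 8 genes in the GFP-positive group and 6377 to 6946 CPM in the GFP-negative group, with the lowest sum in GFP-positive replicate 3. B cell markers summed to 9.70 to 12.4 CPM in the GFP-positive group and 8.99 to 67.3 CPM in the GFP-negative group, with Ms4a1 at 0 in all 6 libraries. CD8 T cell markers summed to 14.1 to 51.8 CPM in the GFP-positive group and 32.7 to 123 CPM in the GFP-negative group. Of 8 endothelial markers, Cdh5 and Vwf were at 0 throughout. Their sum, 63.2 to 69.0 CPM in the GFP-positive group and 32.6 to 79.4 CPM in the GFP-negative group, was nearly all Pecam1, which T cells also express (62.8 to 65.6 CPM in the GFP-positive group and 32.0 to 79.4 CPM in the GFP-negative group). The part of these markers in the GIMAP results was not tested, and the GIMAP comparison between the groups is also given without GFP-positive replicate 3. Tcf7 itself had 237, 183 and 141 CPM in the GFP-positive libraries, against 121, 141 and 71.3 CPM in the GFP-negative ones. Its log2 fold change (GFP-positive minus GFP-negative, as throughout) was 0.75 ± 0.26 (SE), with an edgeR adjusted p of 0.367, which did not pass the threshold of 0.05.

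All 8 genes lie in 1 cluster on mouse chromosome 6, between positions 48647234 and 48770851 of mm10 (GRCm38), a span of 123618 bases in the GENCODE M21 annotation. Every identifier of the count table matched that annotation with its version. From low to high coordinates the order was Gimap8, Gimap9, Gimap4, Gimap6, Gimap7, Gimap1, Gimap5 and Gimap3. Gimap6 and Gimap3 are on the minus strand and the other 6 on the plus strand.

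Gimap3 and Gimap5 were by far the most alike in coding sequence, which bears on how reads of the pair could be assigned. Over 720 aligned coding bases 705 were identical (97.9%), and the longest identical run was 140 bases, more than the 100-base read length. The next most alike pair, Gimap7 and Gimap9, was identical at 67.5% of 714 aligned bases. The stretch around the longest shared run follows, from GENCODE M21 transcripts, bases 170 to 319 of the Gimap3 coding sequence and bases 182 to 331 of that of Gimap5, with the differing bases in capitals.
Gimap3: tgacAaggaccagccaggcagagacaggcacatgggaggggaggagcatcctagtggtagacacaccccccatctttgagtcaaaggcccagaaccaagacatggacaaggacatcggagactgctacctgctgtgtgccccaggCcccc
Gimap5: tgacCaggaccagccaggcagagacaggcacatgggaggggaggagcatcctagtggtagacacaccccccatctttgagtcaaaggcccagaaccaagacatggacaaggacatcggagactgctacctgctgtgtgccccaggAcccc
Of 2478 distinct 100-base windows in Gimap3 transcripts, 41 (1.65%) also occurred in Gimap5, and of 4245 windows in Gimap5 transcripts 96 (2.26%) occurred in another gene. For Gimap1, 979 of 3120 windows (31.4%) were shared, 882 of them with the antisense transcript Gimap1os and 99 with the readthrough gene Gm28053, which spans Gimap7, Gimap1 and Gimap5. The library procedure does not record the strand, so reads from Gimap1 and Gimap1os cannot be told apart where they overlap, 36.0% of the exon bases of Gimap1. No window of Gimap4, Gimap6, Gimap7, Gimap8 or Gimap9 was shared with another gene. Gimap7 does share 81 exon bases (3.48%) with Gm28053 on the same strand, a stretch shorter than a window. The deposited counts for Gimap1os were low, 25.1 ± 5.63 CPM in the GFP-positive group and 24.8 ± 5.69 CPM in the GFP-negative group (mean ± SD, 3 libraries each).

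Since the sort was on Tcf7, promoters were searched on both strands for the core of sites bound by TCF/LEF factors (CTTTGAT or CTTTGAA). The search also took the RUNX core (TGTGGT) and an extended form of the ETS site (CCGGAAG). RUNX and ETS are factor families active in T cells. The RefSeq promoter table (GRCm38.p6, 250 bases before to 50 after the start) held 9 windows for the 8 genes. A TCF/LEF core was found in 1 of the 9, that of Gimap7, at position 42 after the start, and in 8.65% of all 32851 promoters. A RUNX core was found in 3 of the 9, those of Gimap4, Gimap7 and Gimap1, and in 16.8% of all promoters. No GIMAP window held the ETS form CCGGAAG, which 8.86% of all promoters did. Shorter or other forms of the ETS site were not searched, so the windows may hold those. The Gimap7 window is printed because it alone held both cores, chr6:48718371-48718670 on the plus strand, with the RUNX match (on the minus strand) and then the TCF/LEF match in capitals.
Gimap7: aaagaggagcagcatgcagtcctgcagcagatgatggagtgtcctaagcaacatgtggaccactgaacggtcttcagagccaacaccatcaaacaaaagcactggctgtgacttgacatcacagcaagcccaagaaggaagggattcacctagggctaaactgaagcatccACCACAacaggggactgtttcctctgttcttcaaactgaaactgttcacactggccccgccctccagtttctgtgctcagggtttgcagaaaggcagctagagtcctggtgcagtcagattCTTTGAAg
A match describes the letters of the window and not binding of a factor.

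Levels were first set between the members by TPM, a unit that scales counts by gene length and library total. Gimap4 was highest, at 1763, 1608 and 1173 TPM in the GFP-positive and 1509, 1347 and 1265 TPM in the GFP-negative libraries. Gimap3 followed with 1269 ± 345 TPM in the GFP-positive group and 1118.5 ± 111 TPM in the GFP-negative group (SD, n = 3 each). Gimap6 had 830.0 ± 173 TPM in the GFP-positive group and 806 ± 97.6 TPM in the GFP-negative group. These 3 genes together made 74.1% to 75.9% of the summed GIMAP TPM in the GFP-positive libraries and 72.8% to 74.9% in the GFP-negative ones. Gimap7 averaged 393 TPM over the 6 libraries, Gimap9 287 TPM, Gimap1 264 TPM, Gimap8 148 TPM and Gimap5 113 TPM, so that the highest member was 12.8 times the lowest. Among all genes of a library, Gimap4 ranked between 65 and 135 by TPM, while Gimap5, the member best known from its loss in animals, ranked between 1201 and 1544.

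The order of neighbours held in 6 of 6 libraries except for Gimap9 above Gimap1, which held in 4, and Gimap8 above Gimap5, which held in 5. The ranges over the 6 libraries did not overlap between Gimap6 and Gimap7 or between Gimap1 and Gimap8, and the other 5 pairs of neighbours had overlapping ranges. The order depends on the length used. The deposited TPM divide by the merged exon length, whereas CPM per kilobase of the transcript with the longest reading frame, an alternative added after the data were seen, put Gimap6 first (627), followed by Gimap3 (546) and Gimap4 (514), and put Gimap8 (74.1) below Gimap5 (84.1). The share of each member in the summed GIMAP TPM overlapped between the groups for all 8 genes. For Gimap4 the share was 31.4% ± 1.07 in the GFP-positive group and 30.6% ± 1.07 in the GFP-negative group. For Gimap5 it was 2.37% ± 0.390 in the GFP-positive group and 2.53% ± 0.0386 in the GFP-negative group (SD, n = 3 each).

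Between the sorted groups, no GIMAP gene differed beyond the spread between libraries. By the quasi-likelihood test of edgeR 0 of 8 passed an adjusted p of 0.05, in a comparison in which 0.108% of all genes tested passed (12 of 11074, with 0.0361% higher and 0.0722% lower in the GFP-positive group). None of the 8 had an unadjusted p under 0.05, against 10.3% of all genes (4.31% higher, 5.97% lower), and DESeq2 and limma-voom also called 0 of 8. For none of the 8 did the groups fail to overlap, against 16% of all genes (7.25% higher, 8.8% lower). The fold change was positive for 7 members and negative for 1, with a median log2 value of 0.11, beside 0.016 over all genes tested and 51.6% of genes positive. In absolute size, all genes had a median log2 difference of 0.267. In sorted populations fewer cells with a transcript and less of it per cell cannot be told apart.

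Gimap5, Gimap1 and Gimap3, which are among the members tied to lymphocyte survival by work in animals, did not pass the test. Gimap5 had 156, 179 and 165 CPM in GFP-positive libraries, against 181, 161 and 144 CPM in GFP-negative ones. The highest and the lowest value were both in GFP-negative libraries, and the log2 fold change was 0.042 ± 0.14 (SE), with an edgeR adjusted p of 0.953. Gimap1, which mature T and B cells need for their maintenance, had 281, 301 and 270.4 CPM in GFP-positive libraries, against 339, 244 and 272 CPM in GFP-negative ones. Its fold change of -0.0057 ± 0.15 on the log2 scale (edgeR adjusted p = 0.993) was the only negative one, and here too the GFP-negative libraries enclosed the GFP-positive ones. Gimap3, the near copy of Gimap5 whose protein has been placed on mitochondria and which acts with it in T cell survival, had 1397, 1142 and 940.3 CPM in GFP-positive libraries, against 1082, 988 and 897 CPM in GFP-negative ones. GFP-positive replicates 1 and 2 lay above all GFP-negative libraries and replicate 3 between them. The log2 fold change was 0.23 ± 0.17, with an edgeR adjusted p of 0.705.

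Gimap4, whose loss delays the death of T cells, had 1080.3, 1049.7 and 840.1 CPM in GFP-positive libraries, against 959.7, 826 and 812 CPM in GFP-negative ones. As for Gimap3, only GFP-positive replicate 3 lay within the GFP-negative range, and the log2 fold change was 0.19 ± 0.15 with an edgeR adjusted p of 0.725. Gimap6, a partner of the autophagy protein GABARAPL2, had 1182, 1004 and 912 CPM in GFP-positive libraries, against 1100.2, 928 and 873 CPM in GFP-negative ones. The groups overlapped over most of their range (log2 fold change 0.094 ± 0.15, edgeR adjusted p = 0.885). Gabarapl2 itself, named for that link and not by the rule on named genes, had 228 ± 30.6 CPM in the GFP-positive group and 223 ± 21.6 CPM in the GFP-negative group.

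Gimap8, whose product carries several GTPase domains where the others have a single one, had the largest positive estimate with all 6 libraries. It had 241, 202 and 188 CPM in GFP-positive libraries, against 206, 186 and 123 CPM in GFP-negative ones. The low value of GFP-negative replicate 3 sat apart from the other 5, and the log2 fold change was 0.30 ± 0.19 with an edgeR adjusted p of 0.656. Without that library the difference was 0.12 on the log2 scale, below those of Gimap3 (0.18) and Gimap4 (0.16). Gimap7, whose human protein is active as a dimer, had 388, 325 and 259 CPM in GFP-positive libraries, against 347, 332 and 261 CPM in GFP-negative ones. Both ends of its range were in GFP-positive libraries, and the log2 fold change was 0.048 ± 0.17 (edgeR adjusted p = 0.955). Gimap9 had 174, 198 and 145 CPM in GFP-positive libraries, against 177, 165 and 131 CPM in GFP-negative ones, with overlapping groups. The log2 difference was 0.13 ± 0.17, and its edgeR adjusted p was 0.855.

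**Figure D1:**
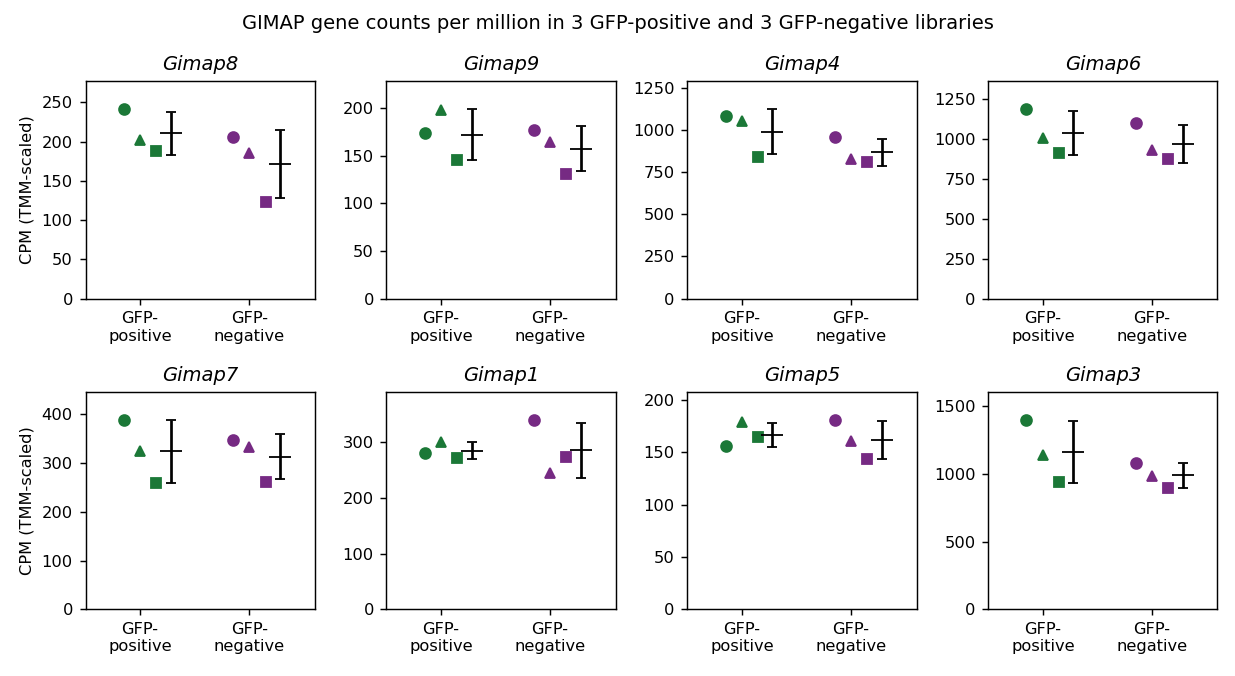
CPM of each GIMAP gene in the 6 libraries, GFP-positive left of GFP-negative, with a circle, triangle and square for replicates 1, 2 and 3 and bars for the mean and SD. The groups overlap in all 8 panels.

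A p that misses the threshold does not show equal levels, so the 95% intervals of the differences matter here. Over the 8 genes the bounds reached from -0.33 to 0.70 on the log2 scale, ratios of 0.793 to 1.63. The intervals thus excluded a 2-fold difference in either direction for every member. For Gimap8 the interval was -0.11 to 0.70, for Gimap3 -0.13 to 0.59 and for Gimap5 -0.27 to 0.36. The spread over the 6 libraries, which includes any difference between the groups, was larger than the counting error. Each member had between 562 and 8068 counts in a library, for which counting alone gives an error of 1.11% to 4.22%, while the coefficient of variation over the 6 libraries was 8.50% to 20.2%. For 1081 genes with a mean of at least that of the lowest member, the median coefficient of variation was 13.6% and the median absolute log2 difference 0.156.

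**Figure D2:**
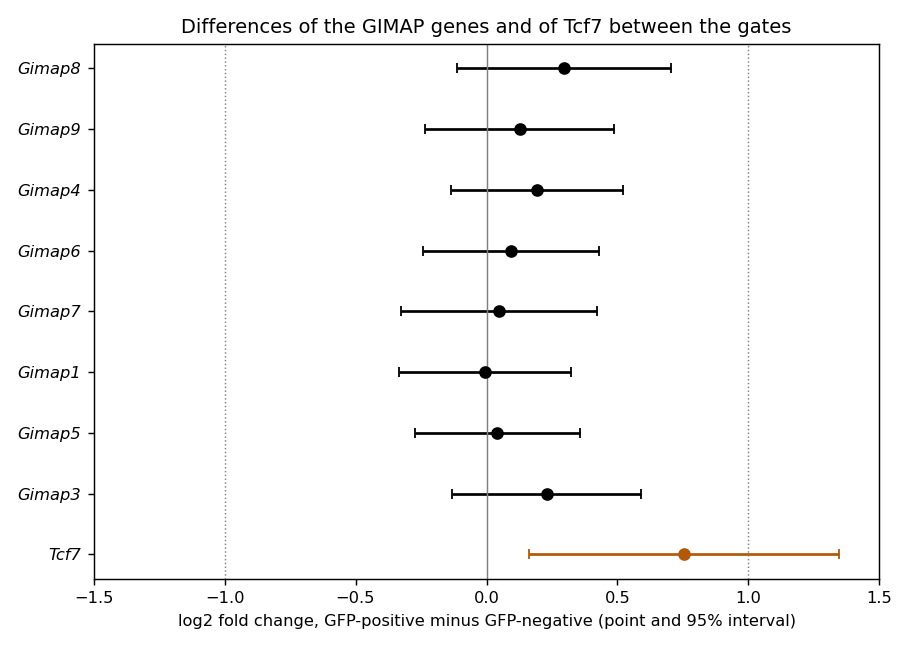
Log2 fold change of each GIMAP gene (GFP-positive minus GFP-negative) with its 95% interval from the edgeR fit, and dotted lines at a 2-fold difference either way. For every GIMAP gene the interval includes 0 and does not reach a dotted line, with bounds from -0.33 to 0.70.

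Summed over the family, GIMAP transcripts reached 4899, 4399.6 and 3720.4 CPM in GFP-positive libraries, against 4391, 3829 and 3514 CPM in GFP-negative ones. The means were 4339.8 ± 592 CPM in the GFP-positive group and 3911 ± 444 CPM in the GFP-negative group (SD, n = 3 each), a ratio of 1.11, and the groups overlapped. Set against the summed T cell markers of the same library, a scaling added after the data were seen, the ratios were 0.699, 0.652 and 0.695 in GFP-positive libraries and 0.632, 0.600 and 0.551 in GFP-negative ones. On that scale the groups did not overlap, with a log2 ratio of 0.20, and no test was made. The share of all genes that do not overlap on that scale was not computed. GFP-positive replicate 3, with its high myeloid markers, had a T cell marker sum of 5355 CPM, against 6377 to 7004 CPM in the other libraries. Its GIMAP sum before this scaling lay within the GFP-negative range.

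Without GFP-positive replicate 3, the library with high myeloid markers, all 8 fold changes were positive and their median was 0.22, beside 0.014 over all genes. None of the 8 passed the adjusted threshold in the edgeR test, in a fit in which 0.452% of all genes did. Gimap3 and Gimap4 no longer overlapped between the groups, 2 of 8 against 14.3% of all genes that did so with higher GFP-positive values. Gimap3 had a log2 fold change of 0.37 ± 0.16, an unadjusted p of 0.0346 and an edgeR adjusted p of 0.353, as the 1 member of 8 under 0.05 unadjusted, against 4.76% of all genes that were so and higher. For Gimap4 the log2 difference was 0.31 and the edgeR adjusted p 0.424, and for Gimap8 they were 0.38 and 0.475. The other 5 members had log2 differences of 0.040 (Gimap1) to 0.25 (Gimap9). The log2 ratio of the summed GIMAP level was 0.26 without that library, against 0.15 with it. Leaving out GFP-positive replicate 1 moved Gimap3 the other way, to a log2 difference of 0.074 ± 0.15 (edgeR adjusted p = 0.924), and put Gimap4 at 0.13 and Gimap8 at 0.19. Without GFP-negative replicate 1, the GFP-negative library with the highest value for all 8 genes, the median was 0.21, and 2 members did not overlap, against 13.1% of all genes that did so with higher GFP-positive values. Without GFP-negative replicate 3 the median was 0.03, with 5 positive and 3 negative values.

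The members tended to be high or low in the same libraries whatever their group. GFP-positive replicate 2 and GFP-negative replicate 1 had all 8 genes above their own mean over the 6 libraries, GFP-positive replicate 1 had 6, GFP-positive replicate 3 and GFP-negative replicate 2 had 2 each, and GFP-negative replicate 3 had 0. Within the GFP-positive group replicate 3 was lowest for 7 of the 8 genes. In the GFP-negative group replicate 1 was highest for all 8 and replicate 3 lowest for 7. Likeness to the mean GIMAP profile was measured as the root mean square distance of centred log2 CPM over the 6 libraries, for 6592 genes with a mean of at least 20 CPM, whose median distance was 0.292. The nearest genes outside the family were 4930523C07Rik (0.0208), Zfp386 (0.0352), Ifi206 (0.0397), Khdc4 (0.0406) and Hsp90ab1 (0.0434). Gimap6 was nearest among the members, with 14 genes from outside the family nearer, and Gimap8 farthest, with 743 nearer. The libraries' depth, makeup and scaling are shared by all genes, so that likeness is a description only.

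**Figure D3:**
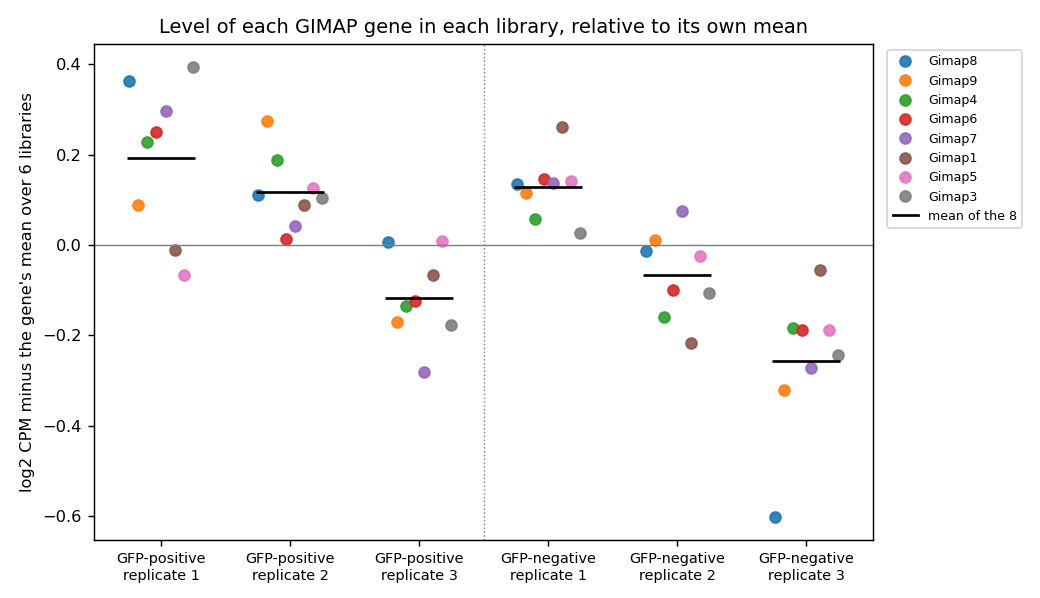
Centred log2 CPM of each GIMAP gene in the 6 libraries, GFP-positive at the left and GFP-negative at the right, with the mean of the 8 genes. Most genes are high in GFP-negative replicate 1 and low in GFP-negative replicate 3, with Gimap8 the lowest point at -0.60 in GFP-negative replicate 3.

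Genes that flank or overlap the cluster did not pass the test either. To the left of the cluster Repin1 and Lrrc61 had log2 fold changes of 0.04 and 0.15, Zfp775 of 0.73 ± 0.46 and AI854703 of 0.85 ± 0.57 (edgeR adjusted p = 0.658 and 0.670). On the other side, Tmem176b had 542 ± 96.3 CPM in the GFP-positive group and 514 ± 85.5 CPM in the GFP-negative group. Tmem176a had 351 ± 53.1 CPM in the GFP-positive group and 364 ± 19.6 CPM in the GFP-negative group, and Malsu1 a log2 fold change of 0.28 ± 0.24. Gpnmb, a gene known from macrophages, had 4.16, 2.76 and 23.1 CPM in GFP-positive libraries, against 4.65, 0.910 and 4.39 CPM in GFP-negative ones, its high value being in the library with high myeloid markers. Within the cluster the noncoding RNA Gm44226, picked out after its values were seen, had 12, 14 and 21 counts in GFP-positive libraries, against 5, 5 and 2 in GFP-negative ones. Its log2 fold change of 1.68 ± 0.94 did not pass (edgeR adjusted p = 0.604).

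No gene of the survival or autophagy lists, pathways that GIMAP proteins act in, passed the test, while 1 gene of naive cells and 1 of effector cells did. Over all genes 0.108% passed. Of 12 genes of survival signalling and BCL2 partners of the GIMAP proteins, 0 passed the adjusted threshold in the edgeR test. At an unadjusted p under 0.05, 2 were higher and 0 lower in the GFP-positive group, against 4.31% and 5.97% of all genes. The 2 were Bcl2 and Il7r. Bcl2, which blocks cell death, had 211 ± 3.61 CPM in the GFP-positive group and 124 ± 26.7 CPM in the GFP-negative group (edgeR adjusted p = 0.114). Il7r, the receptor chain for the survival cytokine IL-7, had 1639.5 ± 145 CPM in the GFP-positive group and 950.4 ± 135 CPM in the GFP-negative group (edgeR adjusted p = 0.102). The third named gene of that list, Ctnnb1 for beta-catenin, had 40.3 ± 6.34 CPM in the GFP-positive group and 28.8 ± 8.14 CPM in the GFP-negative group. Of 18 autophagy and lysosome genes, 0 passed and the median log2 fold change was -0.05. At an unadjusted p under 0.05, 1 was higher and 1 lower. These make 11.1% of the list, near the 10.3% of all genes. The lysosome regulator Tfeb had 6.08 ± 0.488 CPM in the GFP-positive group and 14.4 ± 2.60 CPM in the GFP-negative group (edgeR adjusted p = 0.322). Lamp2, a lysosome membrane protein, had 122 ± 51.6 CPM in the GFP-positive group and 75.5 ± 14.2 CPM in the GFP-negative group. The related Lamp1 had 143 ± 58.4 CPM in the GFP-positive group and 101 ± 13.8 CPM in the GFP-negative group. Both were highest in GFP-positive replicate 3, at 181 and 208 CPM, the library with high myeloid markers.

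Of 18 genes of naive and quiescent T cells, 14 had a positive fold change and 1 passed, with a median log2 value of 0.67, and 8 were higher and 1 lower at an unadjusted p under 0.05, against 4.31% and 5.97% of all genes. This list includes Tcf7, whose reporter set the sort, and Tcf7 is among the 14 and among the 8. These counts are therefore not independent of the gate, and Tcf7 stays in the list when a library is left out. Il7r, also in the survival list, is among the 8 too. The gene that passed was Id3, an inhibitor of E proteins, which rose to 68.9 ± 22.6 CPM in GFP-positive libraries, against 14.3 ± 5.49 CPM in GFP-negative ones (edgeR adjusted p = 0.0285). For S1pr1, a receptor for leaving tissue, the log2 difference was 1.12 with an edgeR adjusted p of 0.107. Of 18 genes of effector and activated T cells 16 had a negative fold change, with a median of -0.72. At an unadjusted p under 0.05, 12 were lower, against 5.97% of all genes. The 1 that passed the adjusted threshold was the checkpoint receptor gene Lag3, which fell to 14.0, 13.3 and 16.2 CPM in GFP-positive libraries, against 82.96, 49.3 and 44.3 CPM in GFP-negative ones (edgeR adjusted p = 0.0165). Klrg1, a receptor of late effector cells, had 16.6 ± 3.03 CPM in the GFP-positive group and 47.2 ± 20.6 CPM in the GFP-negative group (edgeR adjusted p = 0.127). Prdm1, the gene of the effector regulator BLIMP-1, had a log2 difference of -0.65 (edgeR adjusted p = 0.158). All 14 cell cycle genes had a negative fold change, with a median of -1.18, and 0 passed the edgeR test, while 11 were lower at an unadjusted p under 0.05, again against 5.97% of all genes. Tyms, Uhrf1 and Cdk1 had log2 fold changes of -1.23, -1.74 and -1.03 (edgeR adjusted p = 0.107, 0.124 and 0.209). The calls in these lists depended on which libraries were included. Without GFP-positive replicate 1 or without GFP-negative replicate 1, 0 naive and 0 effector genes passed the edgeR test. Of all 11074 genes, 0 passed without GFP-positive replicate 1. In these fits 8 and 9 naive genes were higher at an unadjusted p under 0.05, against 500 and 482 of all genes. At that level 10 and 12 effector genes were lower, against 577 and 639 of all genes. No effector gene passed without GFP-positive replicate 2 or GFP-negative replicate 2, with 12 and 10 lower at an unadjusted p under 0.05. At that level 538 and 422 of all genes were lower in these fits. No naive gene passed without GFP-negative replicate 3, with 8 higher at that level, against 401 of all genes. Without GFP-positive replicate 3, 3 naive genes passed higher, and 3 effector genes and 1 cell cycle gene passed lower. Of all 11074 genes, 15 passed higher and 35 lower in that fit. Without GFP-negative replicate 1, 2 cell cycle genes passed lower, against 8 of all genes that did so. In each of these fits 0 GIMAP genes passed.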

How the data were processed

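RNA of sorted CD4 T cells was measured in 6 libraries, 3 GFP-positive and 3 GFP-negative, grouped and numbered by their titles. The authors deposited raw counts per gene and TPM. The submitters' processing notes name deepTools 3.5.1, SAMtools 1.17, STAR 2.7.10b, fastp 0.23.3 and the mm10 build. The role of each tool, the read counter and the annotation file are not stated in the sources used here. Per the labels' protocols, cDNA from oligo-dT and random primers was amplified, tagged with a transposase and read in pairs, without strand or molecular identifiers, so counting errors cover counting only. Counts sum to 4309500 to 7462076 per library, so that 3 counts are 0.43 to 0.69 CPM. The deposited TPM were tested on the counts: TPM divided by count was constant over libraries, within 0.01 on the log2 scale, for 6913 of 6913 genes, and the length used for each GIMAP gene was its merged M21 exon length. No libraries were duplicates (the chi-square between replicates was at least 11.4 per degree of freedom).

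Counts were tested in R 4.3.3 with edgeR 4.0.16 (quasi-likelihood), with TMM factors, robust dispersions, a minimum count of 10 and the group as the only term, adjusted by Benjamini-Hochberg over 11074 genes. CPM use TMM-scaled totals. Standard errors were derived from F. No test was made over the GIMAP list. Promoters came from RefSeq (GRCm38.p6) and coding sequences from GENCODE M21. A planned comparison of protein sequences was not run. The members, lists and tests were chosen with earlier results of these data known. Named genes were the members, Tcf7, up to 3 genes of each list with the smallest unadjusted p, up to 4 neighbours on each side and the 5 nearest profiles. Alternatives were RLE factors, library size alone, other filters, DESeq2 1.42.0, limma-voom (limma 3.58.1), limma fits of log2(TPM + 0.1) and log2(TPM + 1), blocking by replicate number, a threshold of 0.01 and leaving out each library, the last with the genes of the full fit and with the filter applied anew. The scaling to T cell markers and to the main transcript was added after the data were seen. The edgeR fit was tested on simulated counts with known changes.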

Additional observations from a re-analysis of the deposited data

How the results depend on the processing

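No GIMAP gene passed the adjusted threshold under any of the 23 alternatives that gave a count, and the median GIMAP log2 fold change stayed positive, 0.023 to 0.22 when each library was left out in turn. The summed GIMAP log2 ratio was 0.049 to 0.26 over the same fits. Limma-voom gave no summed value, and a threshold of 0.01 changed only counts. Fold changes near 0 turned sign. Gimap1 had log2 values of 0.0021 with RLE factors, 0.0016 with DESeq2, 0.0032 with limma-voom and 0.0063 with the replicate block. On log2(TPM + 1), log2(TPM + 0.1) and unfiltered log2(TPM + 1), Gimap5 was at -0.018, -0.018 and -0.018 and Gimap7 at -0.025, -0.025 and -0.025. Leaving out each library gave -0.11 to 0.14 for Gimap1 with the genes of the full fit and -0.11 to 0.13 with the filter applied anew. The ranges were -0.025 to 0.13 and -0.032 to 0.12 for Gimap5, -0.014 to 0.20 and -0.019 to 0.19 for Gimap6, and -0.10 to 0.20 and -0.11 to 0.19 for Gimap7. The members that kept their sign in these fits ranged from 0.070 to 0.37 (Gimap3), 0.12 to 0.31 (Gimap4), 0.11 to 0.45 (Gimap8) and 0.016 to 0.25 (Gimap9). Among the fits with the filter applied anew, Gimap5 was at -0.0097 without GFP-positive replicate 2, Gimap1 at 0.035 without GFP-positive replicate 3 and Gimap7 at -0.062 without GFP-negative replicate 3. The number of all genes past the threshold, 12 in the main test, was 19 with library size alone, 373 with no filter, 200 with DESeq2, 5 with limma-voom, 1 on log2(TPM + 1), 0 on log2(TPM + 0.1), 1 on unfiltered log2(TPM + 1) and 0 at a threshold of 0.01. Leaving out each library gave 0 to 50, or 0 to 42 with the filter applied anew. The causes were not tested. The replicate block gave 81 calls over all genes and 0 among the GIMAP genes, with an unadjusted p of 0.0441 for Gimap8 (edgeR adjusted p = 0.400). Same-numbered libraries of the groups had correlated deviations of 0.104, 0.0971 and 0.104, and 0.0971 missed the criterion of 0.1. Every library correlated best with its own number, and differently numbered libraries reached at most 0.0195. Whether the numbers pair the samples was therefore not settled, and the main test did not pair them. With 3 libraries a group, an exact permutation test of a single value cannot give a p below 0.1, and the intervals above set what differences could be seen.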
